A study of Mus musculus with 8 samples.

Results

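A group of 9 genes of the presynaptic release machinery was followed in the cerebellum of mice with and without the kinase Atm: Vamp1, Vamp2, Snap25 and Stx1a of the SNARE complex, the calcium sensors Syt1 and Syt2, the synapsins Syn1 and Syn2, and the vesicle membrane protein Syp. They were named by symbol from a list of vesicle genes, since cytoplasmic Atm protein binds vesicle proteins. No measured value entered the rule itself, but the genes were chosen with earlier results of these data known. All 9 were found among the 56691 genes of the count table, and all 9 were among the 22423 genes with enough reads to be tested.

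RNA was sequenced from snap-frozen whole cerebellum of 6-month-old mice of the strain B6;129S4-Atmtm1Bal/J, perfused with saline. The 4 Atm-KO mice (genotype ATM -/-) and the 4 Atm-WT mice (ATM +/+) were littermates from crosses of heterozygotes; no treatment is stated. The allele is carried in the germline, so that neurons, glia and the organs outside the brain all bore it. Libraries are called here by their labelled number and letter (Atm-WT 2M, 7M, 13M and 32M, Atm-KO 1M, 7F, 11M and 12M), and the letter F occurred in 1 Atm-KO library alone. The labels do not say whether the mice came from separate litters, and p-values measure the spread between these 8 libraries.

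Each library held between 65967130 and 88030300 counted reads, the fewest in Atm-KO 12M. Atm itself read 67.6, 80.0, 79.4 and 59.0 CPM (reads relative to the size of the library, scaled between libraries by the trimmed mean of M values, TMM) in Atm-WT and 51.1, 44.3, 41.1 and 44.9 in Atm-KO, so every Atm-KO library lay below every Atm-WT library, although Atm did not pass the test across all genes (log2 fold change -0.66 ± 0.10, SE, edgeR adjusted p = 0.0775). Granule cell and Purkinje cell markers of the cerebellum were abundant in every library, with summed levels of at least 5518 and 7745 CPM. One library stood apart in Slc17a6, which encodes the vesicular glutamate transporter VGLUT2 of deep nuclear and brainstem neurons: it read 4.32 CPM in Atm-KO 12M. At the high end were Atm-WT 32M (115.7 CPM) and Atm-KO 11M (107.2 CPM), and the other 5 lay between 73.6 and 80.1 CPM. Results that rest on the library with the lowest level (Atm-KO 12M) or the highest (Atm-WT 32M) are given with and without them.

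At a presynaptic terminal, transmitter is stored in vesicles that dock at the active zone. A vesicle SNARE, Vamp1 or Vamp2 (also called synaptobrevins), zippers with the target membrane SNAREs Snap25 and syntaxin into a bundle that pulls the membranes together. Synaptotagmins Syt1 and Syt2 sense the incoming calcium and trigger fusion, synapsins tether the reserve pool of vesicles, and synaptophysin, the product of Syp, is an abundant membrane protein that binds Vamp2. In hindbrain and spinal neurons that fire fast, Vamp1 and Syt2 are known to be used alongside or in place of Vamp2 and Syt1.

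Many neuronal genes carry an RE1 element, the DNA site bound by the repressor REST, which keeps such genes silent outside neurons. The element was looked for around the start of the canonical transcript of each of the 9 genes, since it is a sequence feature that the choice of genes did not use. The consensus searched was TTCAGCACCNNGGACAGNGCC, with 18 letters compared over 21 bases on both strands, within 20 kb on either side of the start, and a match needed at least 16 letters. The window and the minimum were set after the sites had been seen. Matches were found for 4 of the 9 genes, against 1.79% of all 21757 protein-coding genes searched (390 genes) and 2.14% of the 15309 protein-coding genes that were also tested here (327 genes). The 4 sites are printed to show how closely they keep to the consensus, 5′ to 3′ on the strand of the match, in capitals where a letter equals the consensus and in lower case elsewhere.
Syn1: TTCAGCACCgcGGtCAGaGCC
Syp: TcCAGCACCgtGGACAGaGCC
Syt2: TTCAGCACCacGGACAGcaCC
Snap25: TTCAGCACCgcGGACAGcGat

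The Syn1 site (17 letters matched) lies on the minus strand of GRCm39 at chrX:20787369-20787389, in the untranslated part of exon 1, with its centre 18 bases downstream of the start. The Syp site (17 letters) is at chrX:7504976-7504996 on the plus strand, in intron 1 and 276 bases downstream. The Syt2 site (17 letters) is farther away, at chr1:134592743-134592763 on the plus strand, in intron 2 and 18.5 kb downstream. The Snap25 site (16 letters) is at chr2:136556258-136556278 on the plus strand, in intron 1 and 1.05 kb downstream. The 4 sites thus lie on the strand of their gene and inside its transcribed part. For the other 5 genes the best window held 13 or 14 matching letters, which says only that this form of the element was not in the bases searched. Of the 4 genes with a site, Syp was among those with a lower level in Atm-KO at an unadjusted p under 0.05, whereas Snap25 and Syt2 showed the smallest differences of all 9.

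Of the 9 genes, 8 belonged to the fifth of tested genes with the highest mean level, and Stx1a was the exception. Per kb of exon (all annotated exons of the gene joined), Snap25 led with 170.7 ± 7.85 CPM per kb (SD, n = 4 Atm-WT), followed by Vamp2 with 121.7 ± 4.15, Syp with 97.7 ± 7.61 and Syt2 with 79.4 ± 3.49. Each of these stood clear of the next, with no overlap between the ranges of the Atm-WT libraries. Syt1 (44.0 ± 2.27) and Syn1 (39.7 ± 2.14) overlapped, as did Syn2 (27.2 ± 0.696) and Vamp1 (24.7 ± 3.29). Stx1a stood far below the others at 0.602 ± 0.273 CPM per kb.

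The places of the leading genes did not depend on how length was counted, but the paralog order did. With the canonical transcript as length, an alternative added after the data had been seen, the order remained Snap25 (747.0 CPM per kb), Vamp2 (418.3) and Syp (228.5), and Stx1a stayed last at 0.896. Syt1 (119.0) then came before Syt2 (102.7), and Syn2 (90.9) before Syn1 (48.1). Which synaptotagmin and which synapsin is the more abundant therefore cannot be read from these counts, since the annotated exons of some genes extend well beyond the canonical transcript.

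**Figure D1:**
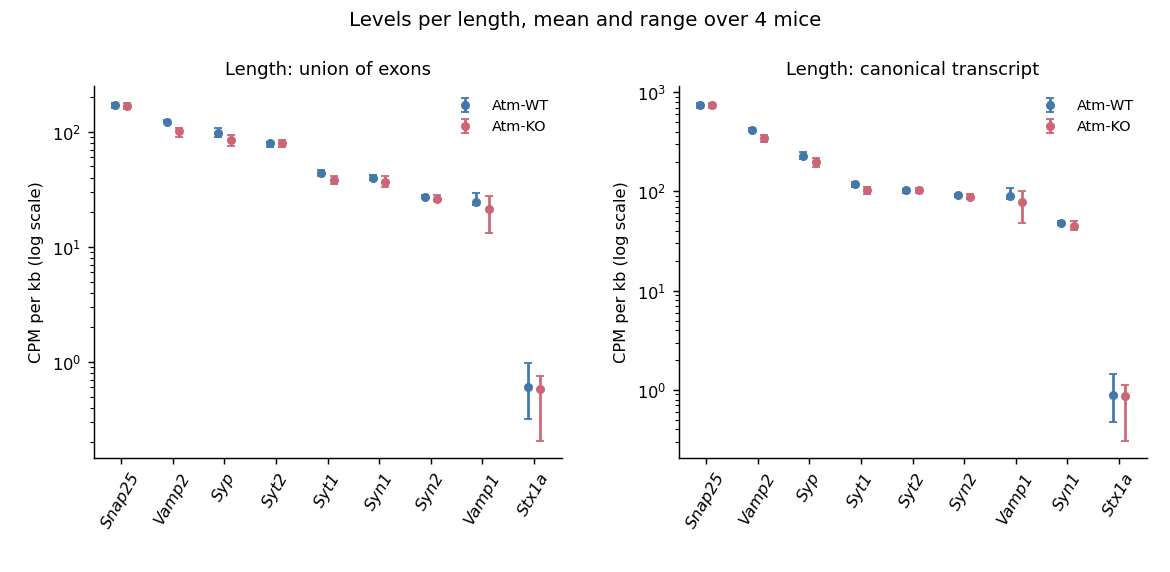
Level of each gene in CPM per kb on a log axis, with the length taken from all joined exons (left) or from the canonical transcript (right). Points are means and bars the range over 4 mice of each genotype. Snap25, Vamp2 and Syp lead under both lengths, and Stx1a lies at 0.602 and 0.896 CPM per kb in Atm-WT.

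The comparison of genotypes asked whether the RNA of these genes differed in the cerebellum without Atm. None of the 9 passed the test across all genes (edgeR quasi-likelihood test, adjusted p under 0.05), a threshold passed by 0.0178% of the genes tested. With DESeq2 1 of the 9 (Vamp2, lower) passed it, where 2.44% of genes passed as lower, and with limma voom 0. At an unadjusted p under 0.05, Vamp2, Syt1 and Syp were lower in Atm-KO, 3 of 9 genes where the share over all genes was 8.48%, and 0 were higher, where the share was 11.7%. In the fifth of genes with the highest level, which holds 8 of the 9, these shares were 15.5% lower and 5.28% higher. All 9 fold changes were below 0. That holds for 53.1% of all genes tested, for 63.8% of the protein-coding ones and for 71.0% of the fifth with the highest level, and the values of Snap25 and Syt2 were so near 0 that their sign turned with the scaling.

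The median log2 fold change of the 9 genes was -0.11, against -0.02 over all genes tested and -0.06 over the fifth with the highest level. This median was not spread evenly over the Atm-KO mice. Relative to the Atm-WT mean, the median of the 9 genes was -0.19 in Atm-KO 1M and -0.22 in 12M, but 0.04 in 7F and -0.05 in 11M, while the 4 Atm-WT libraries lay between -0.04 and 0.03. Read together, the genes thus lay well below the Atm-WT range in 2 of the 4 Atm-KO libraries. The median accordingly depended on which mice were in the comparison: it was -0.05 without Atm-KO 12M and -0.04 without both Atm-KO 12M and Atm-WT 32M, but -0.19 without Atm-KO 7F and -0.18 without Atm-WT 13M. It was -0.04 with a surrogate variable as covariate and -0.06 with library size alone as the scaling.

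**Figure D2:**
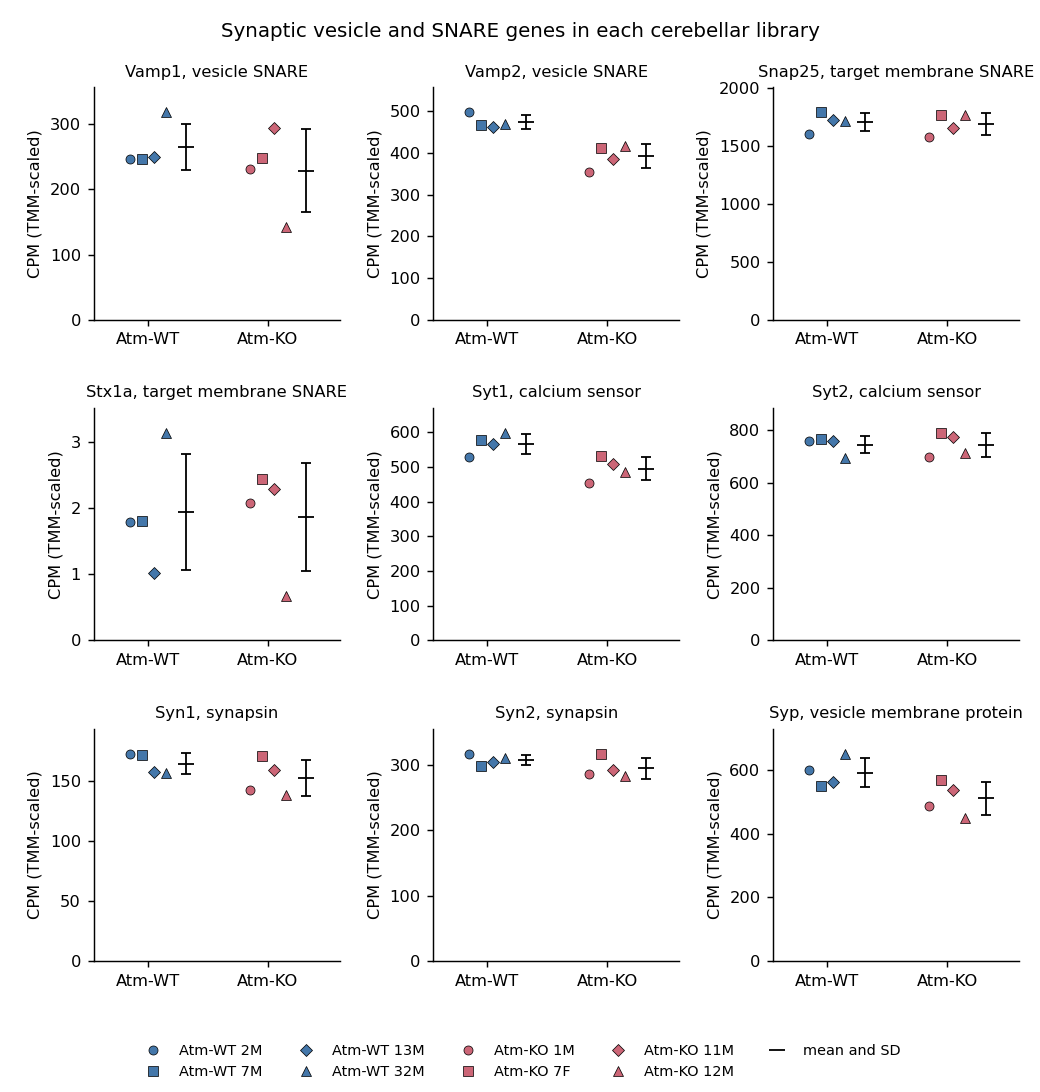
CPM (TMM-scaled) of the 9 genes in each library, with 1 panel per gene on a linear axis from 0. Each symbol is a library and the bars give the mean and SD of the 4 libraries of a genotype. The genotypes stand apart without overlap only in Vamp2, while the low Atm-KO 12M and the high Atm-WT 32M set the spread of Vamp1.

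**Figure D3:**
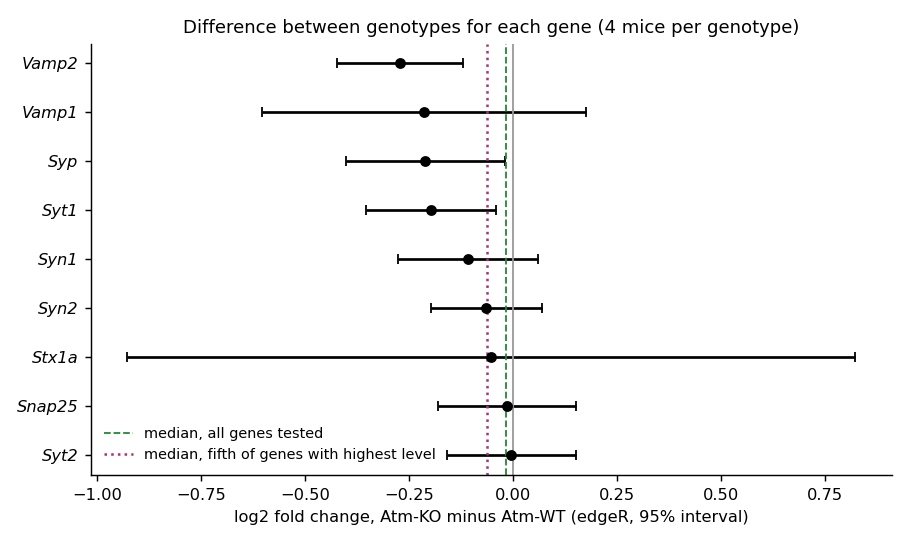
Log2 fold change of each gene (Atm-KO minus Atm-WT, edgeR) with its 95% interval, 4 mice per genotype. The dashed line marks the median of all genes tested (-0.02) and the dotted line that of the fifth with the highest level (-0.06). The intervals of Vamp2, Syp and Syt1 lie below 0 and those of the other 6 include it.

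Among the vesicle SNAREs, Vamp2 (chr11:68979316-68983210, plus strand) is the main synaptobrevin of the brain. It read 497.8, 467.4, 461.9 and 468.8 CPM in Atm-WT and 354.2, 412.6, 386.8 and 415.9 CPM across Atm-KO. All 4 Atm-KO values lay below the lowest Atm-WT value. Vamp2 was the only one of the 9 genes with such a gap, which over all genes tested occurred in this direction in 5.12% and in the other in 6.47%. In the fifth of genes with the highest level it was more frequent in this direction, in 453 of 4485 genes, against 147 in the other. The mean went from 474.0 ± 16.2 to 392.4 ± 28.6 CPM (SD, n = 4), a difference of -17.2%, or -0.27 ± 0.07 on the log2 scale (SE, 95% interval -0.42 to -0.12, edgeR adjusted p = 0.102). The two-sided exact permutation p for this gene alone was 0.0286, the smallest that 4 against 4 libraries can give.

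Vamp2 was lower in Atm-KO under every setting tried. Its log2 fold change ran from -0.31 to -0.22 over 18 alternative settings. DESeq2, named in the methods of the study, gave it an adjusted p of 0.0165 and limma voom one of 0.103, and over all settings the adjusted p ran from 0.0165 to 0.294. Without both Atm-WT 32M and Atm-KO 12M the log2 fold change was -0.31 (edgeR adjusted p = 0.168). Pearson's r of Vamp2 with Slc17a6 on log2 CPM was 0.10 over the 8 libraries and -0.463 in the 6 left without these libraries.

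Vamp1 (chr6:125192340-125222927, plus strand), a synaptobrevin abundant in brainstem and spinal cord, showed a wider spread. It read 246.7, 247.4, 249.6 and 318.6 CPM in Atm-WT and 231.1, 248.0, 294.9 and 142.0 CPM across Atm-KO. The lowest value was that of Atm-KO 12M and the highest that of Atm-WT 32M, the libraries with the lowest and the highest Slc17a6. The means of 265.6 ± 35.4 and 229.0 ± 64.0 CPM (SD, n = 4) gave a log2 fold change of -0.21 ± 0.18 (95% interval -0.60 to 0.18, edgeR adjusted p = 0.528), which did not exceed the spread between mice. Without Atm-KO 12M it was -0.04, and without both libraries it turned to 0.06.

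Over the 8 libraries Vamp1 and Slc17a6 varied together, with Pearson's r = 0.953 and Spearman's rho = 0.690 on log2 CPM. Without the farthest pair, Atm-KO 12M and Atm-WT 32M, r was 0.911 in the remaining 6. In these 6, r rested mainly on Atm-KO 11M, which had the next highest Slc17a6 (107.2 CPM) and also the next highest Vamp1 (294.9 CPM). Apart from it, they spanned only 73.6 to 80.1 CPM of Slc17a6 and 231.1 to 249.6 CPM of Vamp1. Other markers of these neurons did not all share that order. The glycine receptor gene Glra1 read 0.429 CPM in library 12M of Atm-KO and between 5.55 and 11.6 CPM elsewhere, but was not highest in Atm-WT 32M (8.54 CPM), and the glycine transporter gene Slc6a5 read 55.2 CPM in the former and was lowest, at 49.1 CPM, in the latter. Over the 12 markers of deep nuclei and brainstem, of which the 5 Hox genes were too low to test and none was at 0 in every library, the summed level was 223.3 to 279.6 CPM in Atm-WT and 108.6 to 288.0 CPM across Atm-KO, lowest in 12M. In whole tissue, fewer cells of a type and less RNA per cell cannot be told apart, and the part of these cells in the Vamp1 values was not tested.

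**Figure D4:**
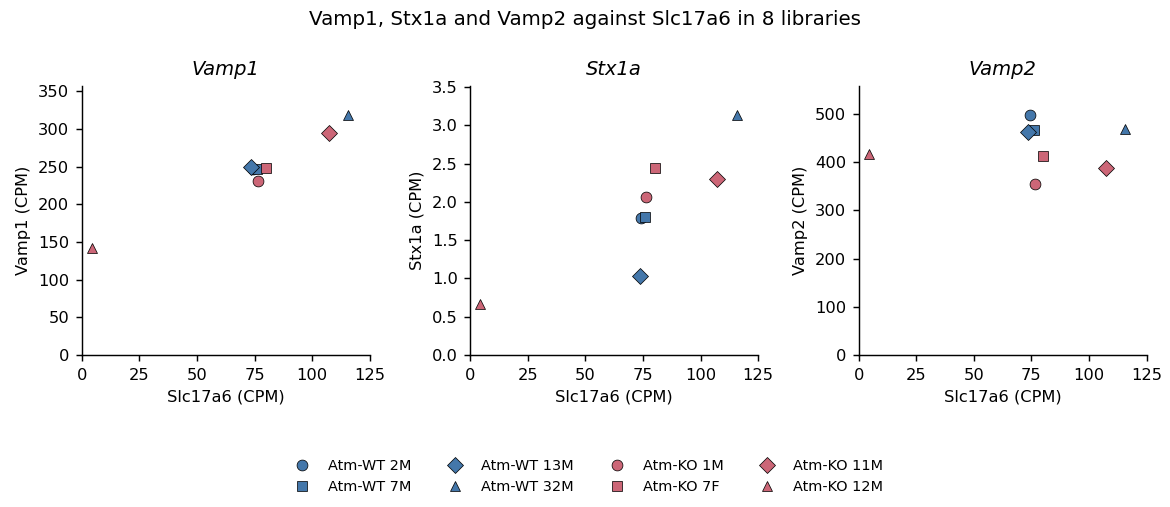
CPM of Vamp1, Stx1a and Vamp2 against CPM of Slc17a6 on linear axes, with 1 symbol per library and the genotype in colour. Vamp1 runs from 142.0 CPM in Atm-KO 12M to 318.6 CPM in Atm-WT 32M along the order of Slc17a6 at its ends, whereas the Vamp2 values of the genotypes do not overlap. No Atm-WT library lies near the lowest Slc17a6 level.

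As a ratio of counts per kb within each library, which no scaling between libraries can move, Vamp1 to Vamp2 stood on the log2 scale at -2.48, -2.38, -2.35 and -2.02 in Atm-WT and at -2.08, -2.20, -1.85 and -3.01 in Atm-KO. Again Atm-KO 12M lay far below the rest. The means of -2.31 ± 0.20 and -2.29 ± 0.51 (SD, n = 4) differed by 0.02, with an exact two-sided permutation p of 1. This value rested on the libraries at the ends: without Atm-KO 12M the difference was 0.26 (exact permutation p = 0.171), and without Atm-WT 32M as well it was 0.36 (exact permutation p = 0.1, the smallest that 3 against 3 libraries can give). With Atm-KO 11M left out instead it was -0.12.

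On the target membrane, Snap25 (chr2:136533580-136624362, plus strand) gives SNAP-25, which adds a pair of helices to the SNARE bundle. It was the most abundant of the 9 transcripts, with 1601, 1790, 1725 and 1717 CPM in Atm-WT and 1573, 1770, 1653 and 1770 CPM across Atm-KO. The ranges overlapped almost wholly. The means of 1708 ± 78.5 and 1691 ± 96.2 CPM (SD, n = 4) gave a log2 fold change of -0.01 (95% interval -0.18 to 0.15, edgeR adjusted p = 0.936), so that a difference of the size seen for Vamp2 lay outside the interval.

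Stx1a encodes syntaxin-1A, the other target membrane SNARE followed here. Stx1a (chr5:135052139-135079963, plus strand) read 1.79, 1.80, 1.03 and 3.14 CPM in Atm-WT and 2.07, 2.44, 2.30 and 0.666 CPM across Atm-KO, from 45 to 269 reads per library. Its extremes fell again in Atm-WT 32M and Atm-KO 12M. The log2 fold change of -0.05 had an interval from -0.93 to 0.82 (edgeR adjusted p = 0.957), which leaves a near doubling or halving within the error. Without both libraries it was 0.56, with an unadjusted edgeR p of 0.0464 and an adjusted p of 0.365. Like Vamp1, Stx1a followed Slc17a6 (r = 0.828, rho = 0.976, n = 8), but less so without the same libraries (r = 0.498 in 6).

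Of the calcium sensors, Syt1 (chr10:108333505-108846856, minus strand), which drives fast release in most forebrain synapses, was the one with the larger difference between genotypes. It read 528.3, 576.8, 564.8 and 598.1 CPM in Atm-WT and 453.8, 532.1, 507.1 and 485.1 CPM across Atm-KO. Of the Atm-KO values, 3 lay below every Atm-WT value, and Atm-KO 7F lay just above Atm-WT 2M. The means of 567.0 ± 29.2 and 494.5 ± 33.3 CPM (SD, n = 4) differed by -12.8%, or -0.20 ± 0.07 on the log2 scale (95% interval -0.35 to -0.04, edgeR adjusted p = 0.167). Without both Atm-WT 32M and Atm-KO 12M the log2 fold change was -0.16, with an unadjusted edgeR p of 0.0594. The unadjusted edgeR p of Syt1 was also above 0.05 without Atm-WT 13M (0.0508) and without Atm-KO 1M (0.0566).

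Syt2 (chr1:134574290-134690331, plus strand), the sensor of fast hindbrain synapses, read 758.6, 765.5, 757.5 and 695.4 CPM in Atm-WT and 696.3, 789.1, 773.2 and 710.7 CPM across Atm-KO. The means were almost the same, 744.3 ± 32.8 and 742.3 ± 45.7 CPM (SD, n = 4). The log2 fold change of -0.0038 had a 95% interval from -0.16 to 0.15 (edgeR adjusted p = 0.983).

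Within the synaptotagmin pair, the balance was shifted towards Syt2 in all 4 Atm-KO libraries, though not past the threshold once the ratios tested were adjusted for. With 4 ratios and 4 libraries per genotype, 1 ratio alone at the smallest permutation p cannot pass that threshold. The log2 ratio of Syt2 to Syt1 per kb was 0.98, 0.87, 0.88 and 0.68 in Atm-WT and 1.08, 1.03, 1.07 and 1.01 in Atm-KO. All Atm-KO values lay above all Atm-WT values, and those of Atm-KO were close together. The means of 0.85 ± 0.13 and 1.05 ± 0.03 (SD, n = 4) differed by 0.19, with an exact two-sided permutation p of 0.0286, the smallest possible here, and 0.114 after Benjamini-Hochberg adjustment over the 4 ratios planned. In plain counts, 1.32 ± 0.113 reads of Syt2 stood beside each read of Syt1 in Atm-WT and 1.502 ± 0.0331 in Atm-KO. Without Atm-WT 32M, the lowest, the difference was 0.14.

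**Figure D5:**
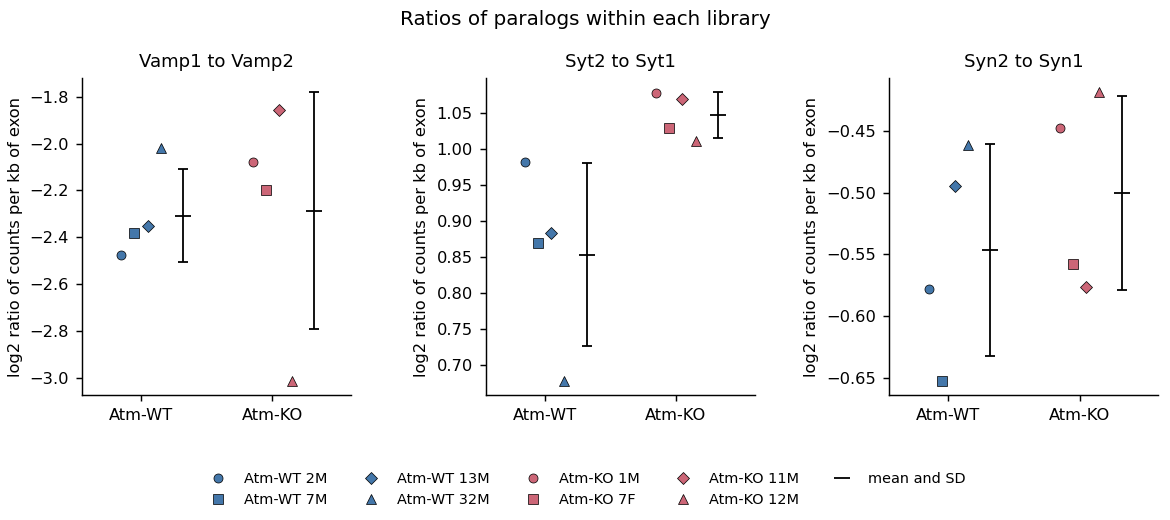
Log2 ratio of counts per kb of exon for 3 pairs of paralogs in each library, with the mean and SD of 4 libraries per genotype. The axes do not start at 0 and differ between panels. The genotypes stand apart only for Syt2 to Syt1, at 0.68 to 0.98 for Atm-WT against 1.01 to 1.08 for Atm-KO.

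Synapsins coat the vesicle and bind it to actin and to other vesicles. Syn1 (chrX:20726750-20787397, minus strand) read 172.7, 171.3, 157.0 and 156.4 CPM in Atm-WT and 142.6, 170.6, 158.7 and 138.1 CPM across Atm-KO. Atm-KO 1M and 12M were the lowest, and Atm-KO 7F and 11M lay within the Atm-WT range. The log2 fold change was -0.11 ± 0.08 (95% interval -0.28 to 0.06, edgeR adjusted p = 0.453), and -0.06 without Atm-KO 12M.

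Syn2 (chr6:115111825-115261708, plus strand) read 316.8, 298.5, 305.1 and 311.2 CPM in Atm-WT and 286.4, 317.3, 291.5 and 283.0 CPM across Atm-KO. The other 3 Atm-KO libraries lay below all Atm-WT libraries, but Atm-KO 7F was the highest of the 8. The log2 fold change of -0.06 ± 0.06 (95% interval -0.20 to 0.07, edgeR adjusted p = 0.585) did not exceed the spread. The log2 ratio of Syn2 to Syn1 differed by 0.05 between genotypes (exact two-sided permutation p = 0.429), and by 0.01 to 0.07 with 1 library left out, the least without Atm-WT 7M and the most without Atm-WT 32M. Of the exon bases of Syn2, 10.1% also belong to exons of Timp4 on the other strand, and reads there cannot be assigned with certainty because how the counting treated strand is not given in the sources used here.

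Syp (chrX:7504710-7519499, plus strand) read 602.2, 550.0, 563.2 and 652.7 CPM in Atm-WT and 487.5, 568.4, 538.4 and 451.4 CPM across Atm-KO. It was lowest in Atm-KO 12M and highest in Atm-WT 32M, and Atm-KO 7F lay within the Atm-WT range. The means of 592.0 ± 46.1 and 511.4 ± 52.1 CPM (SD, n = 4) differed by -13.6%, or -0.21 ± 0.09 on the log2 scale (95% interval -0.40 to -0.02, edgeR adjusted p = 0.208). Without both Atm-WT 32M and Atm-KO 12M it was -0.11, with an unadjusted edgeR p of 0.195, so the difference of Syp rested in part on these libraries. Its unadjusted edgeR p was 0.0613, 0.0816, 0.0803 and 0.0909 without Atm-WT 2M, Atm-WT 32M, Atm-KO 1M and Atm-KO 12M, each left out alone. With every library kept, this p was also above 0.05 with upper-quartile factors (0.0569) and library size alone (0.0755). The same held with at least 10 counts in every library (0.0572), protein-coding genes alone (0.0596) and a surrogate variable (0.110). An antisense transcript, Gm14703, shares 17.1% of the exon bases of Syp.

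On the X-linked genes, Atm-KO 7F held the highest Atm-KO value of Syn1 and of Syp, as it also did of the autosomal Syn2, Syt1, Syt2 and Stx1a. Without it, 4 of the 9 genes (Vamp2, Syn2, Syt1 and Syp) were lower without overlap instead of 1, while the share over all genes went from 5.12% to 7.71%. Leaving out the highest Atm-KO value of Syn2, Syt1 and Syp could only raise this count, so the rise is no separate result. The labels do not spell out the letter, and its part in these values was not tested.

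The 3 genes with a lower level at an unadjusted p moved against the nuclear RNA Neat1, a long noncoding RNA of paraspeckles. Pearson's r of log2 CPM with Neat1 over the 8 libraries was -0.886 for Vamp2, -0.909 for Syt1 and -0.824 for Syp, and -0.883, -0.804 and -0.658 in the 6 libraries left without Atm-KO 1M and Atm-WT 32M. Neat1 itself was higher in every Atm-KO library, 79.2 to 96.2 CPM against 44.7 to 57.1 CPM (log2 fold change 0.70, edgeR adjusted p = 0.0371), so that any gene that separates by genotype correlates with it. Of 9 nuclear RNAs, 8 were higher in Atm-KO, 7 of them at an unadjusted p under 0.05, and their summed level was 5132 to 9966 CPM for Atm-WT and 10461 to 16109 CPM across Atm-KO, with none at 0. Among glial markers, all 8 of microglia, all 8 of astrocytes and all 8 of oligodendrocytes had a fold change below 0, of which 5, 4 and 3 were lower at an unadjusted p under 0.05 (median log2 fold change -0.36, -0.19 and -0.18). Their summed levels were 140.2 to 187.0, 5083 to 5813 and 3315 to 4348 CPM for Atm-WT, against 107.1 to 141.6, 4463 to 5257 and 2011 to 3425 CPM for Atm-KO, with no marker at 0 in every library. With the oligodendrocyte marker Mbp, Pearson's r over the 8 libraries was 0.423 for Vamp2, 0.513 for Syt1 and 0.861 for Syp. In the 6 libraries left without Atm-KO 12M and Atm-WT 32M, it was 0.562, 0.0131 and 0.435. Neuronal markers did not all go one way: 7 of 8 of interneurons and 5 of 6 of Purkinje cells had a fold change below 0, with 1 each lower at an unadjusted p under 0.05, but 3 of 9 of granule cells, with 1 higher. Of 6 tested forebrain markers 5 were below 0, 1 lower and 1 higher at an unadjusted p under 0.05, and their summed level, over all 8 listed, was 104.7 to 124.2 CPM for Atm-WT and 81.3 to 100.6 CPM for Atm-KO. Over all genes tested, 53.1% were below 0, 8.48% lower and 11.7% higher. The part of nuclear RNA and of RNA from any of these cells in the values of the vesicle genes was not tested.

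Related genes of the terminal were counted from lists of known members. The vacuolar proton pump fills vesicles by acidifying them, and all 16 of its subunit genes that were listed had a fold change below 0, 5 of them (31.2%) at an unadjusted p under 0.05 (median log2 fold change -0.11). The shares over all genes tested were 53.1% and 8.48%, and over the fifth with the highest level 71.0% and 15.5%. Its leading gene was Atp6v0c, a subunit of the membrane ring, at 138.3 ± 7.98 CPM in Atm-WT and 110.0 ± 8.85 CPM across Atm-KO (SD, n = 4) without overlap (log2 fold change -0.33, edgeR adjusted p = 0.0931). Of 25 other vesicle membrane genes, 18 had a fold change below 0, 4 of them at an unadjusted p under 0.05, and none was higher at that level (median -0.09). The lowest p there was that of Rab3a, the small GTPase that tethers vesicles before fusion, with 246.4 ± 26.4 against 200.3 ± 19.1 CPM without overlap (log2 fold change -0.30, edgeR adjusted p = 0.125). Rab3d had the lowest p among those with a value above 0 (log2 fold change 0.16, edgeR adjusted p = 0.376).

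Of 32 tested genes of the fusion machinery around the SNAREs, 20 (62.5%) had a fold change below 0, 2 (6.25%) were lower and 3 (9.38%) were higher at an unadjusted p under 0.05 (median -0.05), near the shares of 53.1%, 8.48% and 11.7% over all genes. The fifth with the highest level had 71.0%, 15.5% and 5.28%. Cplx1, a complexin that clamps the partly zippered complex, stood at 299.0 ± 21.9 CPM in Atm-WT and 254.5 ± 33.1 CPM across Atm-KO (log2 fold change -0.23, edgeR adjusted p = 0.204). Unc13a, which encodes the priming factor Munc13-1 that opens syntaxin, lay on the other side of 0, from 202.4 ± 13.3 to 266.7 ± 26.2 CPM without overlap (log2 fold change 0.40, edgeR adjusted p = 0.0931). None of 14 other synaptotagmins had an edgeR unadjusted p under 0.05 (median -0.05). Syt11 had the lowest p below 0 and did not overlap between genotypes (log2 fold change -0.13, edgeR adjusted p = 0.338), and Syt3 above 0 (0.07, edgeR adjusted p = 0.602).

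Of 18 active zone genes, 10 (55.6%) had a fold change below 0, and none was lower and 2 (11.1%) were higher at an unadjusted p under 0.05 (median -0.01). Over all genes these shares were 53.1%, 8.48% and 11.7%, and over the fifth with the highest level 71.0%, 15.5% and 5.28%. Rims2, a scaffold that holds vesicles near calcium channels, had a log2 fold change of -0.16 (edgeR adjusted p = 0.260), and the liprin gene Ppfia1 one of 0.26 without overlap (edgeR adjusted p = 0.142). For vesicle endocytosis, 22 of 29 fold changes (75.9%) were below 0, 3 genes (10.3%) were lower and 2 (6.9%) higher at an unadjusted p under 0.05 (median -0.04), where the fifth with the highest level had 71.0%, 15.5% and 5.28%. Ston1, a stonin adaptor, had a log2 fold change of -0.48 and Fcho1, a nucleator of clathrin pits, one of 0.33 (edgeR adjusted p = 0.106 and 0.0953), both without overlap.

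Among 8 transmitter transporters, 3 (37.5%) had a fold change below 0, 1 was lower and 2 were higher at an unadjusted p under 0.05 (12.5% and 25%), and the median log2 fold change was 0.24. Over all genes tested these shares were 53.1%, 8.48% and 11.7%, and a list of 8 genes is too short to tell from them. Slc32a1, the vesicular transporter for GABA and glycine, went from 118.8 ± 7.60 to 97.4 ± 8.36 CPM without overlap (log2 fold change -0.29, edgeR adjusted p = 0.105). Slc18a2, the vesicular monoamine transporter, lay at 0.256 to 1.53 CPM in Atm-WT and 0.370 to 6.98 CPM across Atm-KO (log2 fold change 1.86, edgeR adjusted p = 0.223), with overlapping genotypes. Over all these lists together, 142 of 146 genes were tested, and 99 (69.7%) had a fold change below 0. At an unadjusted p under 0.05, 15 (10.6%) were lower and 9 (6.34%) higher, and the median was -0.06. The fifth with the highest level had 71.0%, 15.5% and 5.28%, with a median of -0.06. None passed an adjusted p of 0.05 (edgeR).

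The 9 genes did not vary as a block across the 8 libraries. Pearson's r of log2 CPM between pairs ran from -0.279 for Snap25 and Stx1a to 0.863 for Syn2 and Syp. Vamp1 went with Stx1a (0.844) and hardly with Vamp2 (0.183), and Syt1 went little with Syt2 (0.253). These correlations share the same libraries and scaling and serve as descriptions.

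The genes most like them, given for 8 of the 9 and chosen among the 9736 other protein-coding genes with a mean of at least 10 CPM (9737 for Stx1a, which lies below that level), differed from gene to gene. For Vamp1 they were Uchl1 and Nat8l (r = 0.996 and 0.994, n = 8 libraries), and for Syp Bmerb1 and Bend6 (0.995 and 0.994). Syt1 was followed most closely by Pitpnb and Fam210b (0.988 and 0.979). For Syt2 they were Arfgef2 and Hmcn1 (0.961 and 0.960), for Syn1 Luzp1 and Arhgap35 (0.976 and 0.972), and for Syn2 Tmt1a and Wfs1 (0.986 and 0.974). Stx1a was closest to Ptpn5 and Scn3b (0.976 and 0.970). For Snap25 the closest were Cd44 and Lgr6, at 0.861 and 0.860. None of the 9 genes was the closest companion of another.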

How the data were processed

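Per the labels and the study's methods, RNA of cerebellum was extracted with TRIzol, sequenced by Novogene and mapped by the authors with STAR to GRCm39, and the authors deposited featureCounts read counts per Ensembl gene, not normalized (1 table, 8 libraries). FastQC 0.11.9 is named in the submitters' processing notes. Strand and read-pair settings are not given in the sources used here, so reads in overlaps with antisense genes cannot be assigned. Symbols and positions came from GENCODE vM39, which held 56017 of the 56691 identifiers (98.8%), a later release than the authors used.

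Genes were filtered by filterByExpr (22423 tested), scaled by TMM and tested with edgeR 4.0.16 (quasi-likelihood, Atm-KO against Atm-WT, Benjamini-Hochberg over all genes tested, common dispersion 0.0404), after a check on simulated counts. DESeq2 1.42.0, named in the methods of the study, limma 3.58.1 and sva 3.50.0 served alternatives. Single values and within-library ratios were tested by exact two-sided permutation of 8 libraries. Log2 CPM used a prior count of 2. Named genes were the 9, Atm, the gene of lowest p in each direction in each list (mean of at least 1 CPM), and the 2 genes of highest correlation. A planned ratio and 3 genes that this rule would name are not reported here. Marker genes were named where they stood beside a result. The genes and lists were chosen with earlier results of these data known. Bases were read from GRCm39.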

Additional observations from a re-analysis of the deposited data

Results flagged for a closer look

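Vamp1 in Atm-WT 32M read 318.6 CPM, apart from the other 3 Atm-WT libraries at 246.7 to 249.6 CPM. Syt2 in the same library read 695.4 CPM, below the 757.5 to 765.5 CPM of the others. In both cases the gap to the nearest library exceeded Dixon's 95% limit for 4 samples. With 26 groups examined, chance at 1 in 20 would give about 1.3 such values, and 2 were found. Both fall in the library with the highest Slc17a6 (115.7 CPM), and the part of that difference in them was not tested.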

How the results depend on the processing

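Vamp2, Syn1, Syn2, Syt1 and Syp were lower in Atm-KO in the standard fit and under all 18 alternatives. Of the 9 genes, 1 (Vamp2) passed the adjusted threshold with DESeq2 and 0 under every other alternative. The number lower at an unadjusted p under 0.05 ranged from 1 (without Atm-KO 1M) to 3 when 1 library was left out, and was 1 without both Atm-WT 32M and Atm-KO 12M, an alternative added after the data were seen, where 1 gene (Stx1a) was higher. With every library kept, it was 2 with upper-quartile factors, library size alone, at least 10 counts, protein-coding genes alone or a surrogate variable, and 3 otherwise. The number without overlap ranged from 1 to 4 (the latter without Atm-KO 7F) and was 2 without both. Signs turned in 4 genes: Vamp1 was 0.0098 with a surrogate variable and 0.057 without both; Snap25 was 0.016 with upper-quartile factors, 0.034 with library size alone, 0.011 with at least 10 counts in every library, 0.029 with protein-coding genes alone and -0.046 to 0.019 with 1 library left out. Stx1a was 0.39 with a surrogate variable, 0.56 without both and -0.25 to 0.28 with 1 left out. Syt2 was 0.00079 with RLE factors, 0.026 with upper-quartile factors, 0.045 with library size alone, 0.022 with at least 10 counts, 0.038 with protein-coding genes alone, 0.0077 with a surrogate variable and -0.037 to 0.026 with 1 left out. Library size alone moved the median of all genes from -0.02 to 0.03. Atm passed the adjusted threshold without a filter (-0.66), with DESeq2 (-0.66), with a surrogate variable (-0.69) and without both (-0.73), and lay at -0.74 to -0.59 with 1 left out, passing only without Atm-WT 32M (-0.74, edgeR adjusted p = 0.0315). The ratio differences lay at -0.12 to 0.26 for Vamp1 to Vamp2 and 0.14 to 0.24 for Syt2 to Syt1 (with 1 left out; the exact permutation p of 0.0571 there is the smallest possible and follows from the gap over all 8 libraries), and were 0.36 and 0.15 without both (exact permutation p = 0.1, the smallest possible). The causes were not tested. No paired analysis was possible because the genotypes share only the number 7 in their labels. Depth was lowest for Stx1a, with 45 to 269 reads per library.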
